A study of Xenopus laevis with 16 samples.

Results

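The cytosolic ribosomal protein genes encode the proteins of the large (RPL) and small (RPS) subunits of the ribosome outside mitochondria. Transcripts were taken as members where the human symbol given by the authors is RPL or RPS followed by a number, or RPLP0, RPLP1, RPLP2 or RPSA, with the RPS6 kinases and the mitochondrial ribosomal proteins left out. This rule found 164 of 43644 transcripts, carrying 80 symbols. Of these, 156 transcripts belong to 73 symbols of core ribosomal proteins (44 of the large and 29 of the small subunit), 6 carry the symbols of the paralogues RPL22L1, RPL26L1, RPL3L, RPL7L1 and RPS27L, 1 carries the readthrough symbol RPS10-NUDT3, and 1 carries RPS19BP1, which encodes a binding partner of RPS19 and no ribosomal protein. Because Xenopus laevis is allotetraploid, most genes have an L and an S copy: 55 symbols have 2 transcripts, 14 have 3 or more and 11 have 1. RPS24, RPS26 and RPL35A have no member and are not analysed here. The name and the human symbol disagree for 3 transcripts (mkrn3.S with RPS10, rbm6.L and rbm6.S with RPS20), so their identity rests on the protein comparison by which the authors assigned symbols.

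A ribosome holds about equal numbers of most of its proteins, and cells make them together. Their mRNAs begin with a terminal oligopyrimidine (TOP) tract, through which growth signalling controls their translation. In the early frog embryo ribosomes laid down in the egg serve most translation, and the embryo's own ribosomal protein mRNAs accumulate around gastrulation while new ribosome assembly starts later. Proteins made in excess of rRNA are degraded, and free RPL5 and RPL11 are known in mammals to stabilise p53.

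RNA was measured in 16 libraries from Nasco-strain embryos, all harvested at stage 12 of gastrulation. Animal caps, the ectoderm above the blastocoel that forms epidermis when left alone, were cut at stage 9 and were taken apart into single cells (dissociated 1 to 3), came from embryos injected at the 2- to 4-cell stage with mRNA for BMP4 (200 pg), Chordin (400 pg), Wnt8 (16 pg), Cerberus (400 pg), FGF8 (200 pg), Xnr2 (200 pg) or Wnt8 with Xnr2 (16 and 200 pg), or were uninjected and intact (controls 1 to 4). The last 2 libraries came from dorsal and ventral parts of embryos divided at stage 10. BMP4 and Wnt8 are secreted signals, Chordin and Cerberus are secreted antagonists of such signals, FGF8 is a fibroblast growth factor, and Xnr2 is a Nodal-type inducer of mesoderm and endoderm. Control 1 belongs with dissociated 1, BMP4 and Chordin, control 2 with dissociated 2, control 3 with dissociated 3, Wnt8 and Cerberus, and control 4 with FGF8, Xnr2 and Wnt8 plus Xnr2. These groupings are called control sets 1 to 4. Each injection and each embryo part is 1 library. The file headers call each control set an independent experiment. Nothing in the labels gives the number of caps pooled or says that same-named groups came from separate clutches, so the spread between libraries may be partly technical.

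The authors deposited RPKM, a read count divided by the length of the transcript model and by the depth of the library. Depth ran from 25408438 mapped reads (ventral) to 46522450 (control 3). All 164 members have a value in dissociated 1 to 3 and controls 1 to 3, and 152 have a value in every library; 156 averaged at least 1 RPKM over the 6 libraries of the full table and 8 did not. The 152 transcripts carried 16 to 23671 reads in a library, so counting error is small for most of them. Epidermal and neural marker lists were checked against the labelled tissue. The epidermal list (20 transcripts, including KRT18, TFAP2A, GRHL3 and DLX5) summed to 218.2 to 852.9 RPKM in dissociated caps with 2 to 4 transcripts at 0, and to 1489 to 1859 RPKM in control caps with 0 to 3 at 0. TP63, a defining gene of basal epidermis, was under 1 RPKM in the 6 libraries of the full table, except for tp63.S in control 2, at 3.91 RPKM. The neural list (20 transcripts, including SOX2, SOX3, ZIC1 and OTX2) summed to 1483 to 2506 RPKM in dissociated caps with 4 at 0, and to 155.8 to 547.1 RPKM in control caps with 1 to 4 at 0. Among its transcripts are mix1.L and mix1.S, which carry the OTX2 symbol and also stand in the list of pan-mesoderm markers used below. Control 4 lists 14 epidermal and 13 neural transcripts, some under other names, so its sums rest on fewer models. Control 1 had the lowest epidermal and the highest neural sum of the controls. In bulk tissue, fewer cells of a type and less RNA per cell cannot be told apart, and polyadenylated RNA gives shares of the mRNA pool, not amounts per cell.

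Ribosomal protein transcripts were abundant in every library, and the 4 controls spanned a wider range than the distance of any treated library from its own control. The 152 transcripts took 1.65, 2.39 and 2.12% of mapped reads in dissociated 1, 2 and 3, against 1.04, 2.19, 1.52 and 1.79% in controls 1, 2, 3 and 4. They took 1.15% after BMP4, 1.28% after Chordin, 1.45% after Wnt8, 1.43% after Cerberus, 2.14% after FGF8, 2.46% after Xnr2 and 2.09% after Wnt8 plus Xnr2. The share was highest in the Xnr2 library and lowest in control 1. Dissociated caps averaged 2.05% ± 0.379 (SD, n = 3) and controls 1 to 3 averaged 1.58% ± 0.580 (SD, n = 3), so the ranges overlapped.

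**Figure D1:**
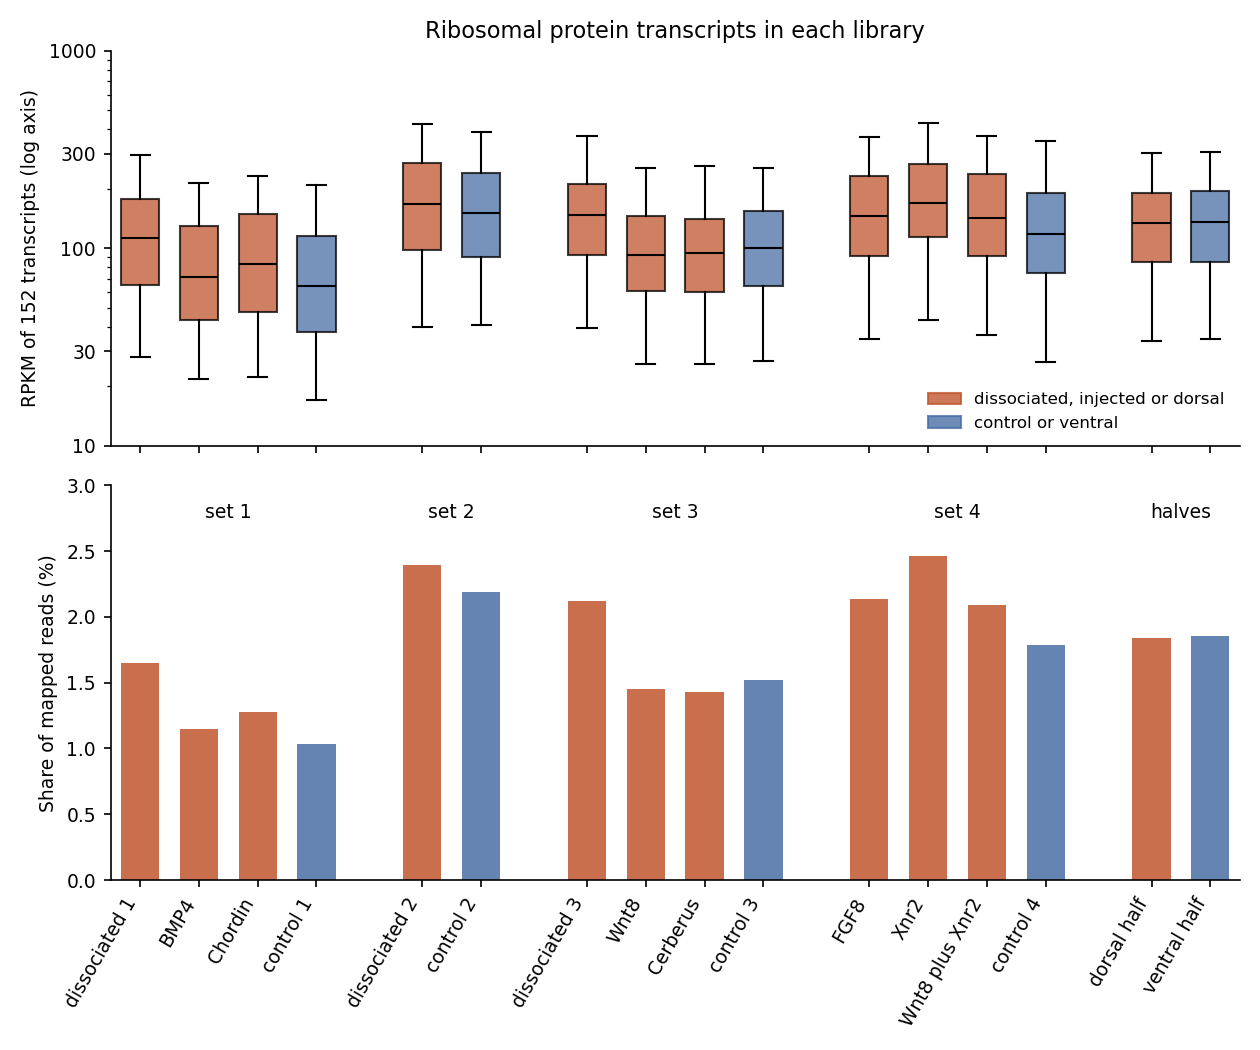
Top: RPKM of the 152 ribosomal protein transcripts listed in every library on a log axis (line, median; box, quartiles; whiskers, 5th to 95th percentile). Bottom: share of mapped reads taken by the same transcripts. Libraries are grouped by control set with the control last. Within sets 1 to 3 the dissociated library stands above its control, and control 1 (1.04%) and control 2 (2.19%) mark a wide spread between untreated caps.

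The spread between controls ran through nearly the whole family. The median member stood at 64.5 RPKM in control 1, 150.8 in control 2, 100.2 in control 3 and 118.5 in control 4. Control 1 was the lowest of the 4 controls for 142 of 152 members, against 28% of all 12495 transcripts listed in every library at a mean of at least 1 RPKM. Control 2 was the highest for 133 members, against 20.7% of all transcripts. All 4 controls stood in the order 2, 4, 3, 1 for 107 members, against 7.03% of all transcripts. The median log2 ratio of control 2 to control 1 was 1.18 over the members and -0.22 over all transcripts. Mapped reads numbered 28721807 in control 1, 38530783 in control 2, 46522450 in control 3 and 36659593 in control 4, with control 1 again the lowest. The part of depth in this spread was not tested.

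Levels within the family spanned a wide range. RPS20, of the head of the small subunit, was the highest gene by the median of controls 1 to 3. Its 2 transcripts summed to 860.6, 1319 and 1165 RPKM in dissociated 1, 2 and 3, against 460.9, 1035 and 780.8 RPKM in controls 1, 2 and 3. RPS18, RPL3 (close to the peptidyl transferase centre), RPS27A (made as a fusion with ubiquitin) and RPS2 followed, with summed medians over controls 1 to 3 of 735.9, 565.6, 416.6 and 414.5 RPKM. The lowest core gene was RPL37A, with 1 transcript at 62.6, 91.8 and 79.0 RPKM in dissociated 1, 2 and 3, against 34.1, 68.8 and 46.0 RPKM in controls 1, 2 and 3. Below it came RPS19BP1, RPS27L, RPL22L1 and RPL3L, none of them a core ribosomal protein. The median transcript of the small subunit was above that of the large one in every library, at 131.9 against 107.3 RPKM in dissociated 1 and 81.5 against 59.9 RPKM in control 1.

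Dissociation asks what caps do when cells lose contact and the signals held between them are diluted. Ribosomal protein transcripts were higher in the dissociated library than in its own control in each of the 3 sets, clearly in sets 1 and 3 and little in set 2. In set 1, 149 of 156 members tested were higher, against 32.5% of all 15493 transcripts, and their median log2 ratio was 0.74 where that of all transcripts was -0.25. In set 3, 151 of 156 members were higher, against 41.7% of all transcripts, with medians of 0.50 for the members and -0.12 for all transcripts. In set 2, 114 of 157 were higher, against 60.8% of all transcripts, with medians of 0.12 for the members and 0.11 for all transcripts. Across sets, 109 of 156 members were above the own control in 3 of 3 sets, against 19.3% of all transcripts, and 2 were below it in 3 of 3, against 24.9%. Summed over transcripts, 58 of the 73 core genes were above the control in every set, 14 in 2 sets and 1, RPS10, in 1 set. RPS10 rests here on mkrn3.S alone, whose name disagrees with the symbol. Transcript rps10.L, counted under the readthrough symbol, had 112.8, 137.5 and 124.6 RPKM in dissociated 1, 2 and 3. Controls 1, 2 and 3 had 76.9, 140.8 and 104.2 RPKM, so it was higher in sets 1 and 3. In set 1 the median log2 ratio was 0.75 for the large and 0.74 for the small subunit, and in set 3 it was 0.50 for each subunit.

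No single member passed the test. With limma on log2(RPKM + 1) over all 15819 transcripts, 0 of 156 members had an adjusted p under 0.05, where 0.145% of all transcripts were called higher and 0.171% lower. At an unadjusted p under 0.05, 4 members were higher and 0 lower, against 4.03% and 5.56% of all transcripts. The median log2 change was 0.45, against -0.08 for all transcripts. It was 0.17 without control 1, 0.74 without control 2, 0.62 without dissociated 1 and 0.35 without dissociated 2. With the control set as a block, 0 members were again called by limma, where 0.657% of all transcripts were higher and 0.853% lower, and the smallest adjusted p of a member was 0.0651. In that fit 82 of 156 members had an unadjusted p under 0.05, all of them higher, against 9.01% of all transcripts that were higher and 10.9% that were lower. With set 1, 2 or 3 left out whole, that count was 46, 117 or 46, with 10, 0 or 3 members called at an adjusted p under 0.05, all higher, on 1 residual degree of freedom. The matching shares of all transcripts are not given here, so these counts do not set the members apart from other transcripts. Epidermal markers were lower and neural markers higher in the same dissociated libraries, as given above, and their part in this result was not tested.

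**Figure D2:**
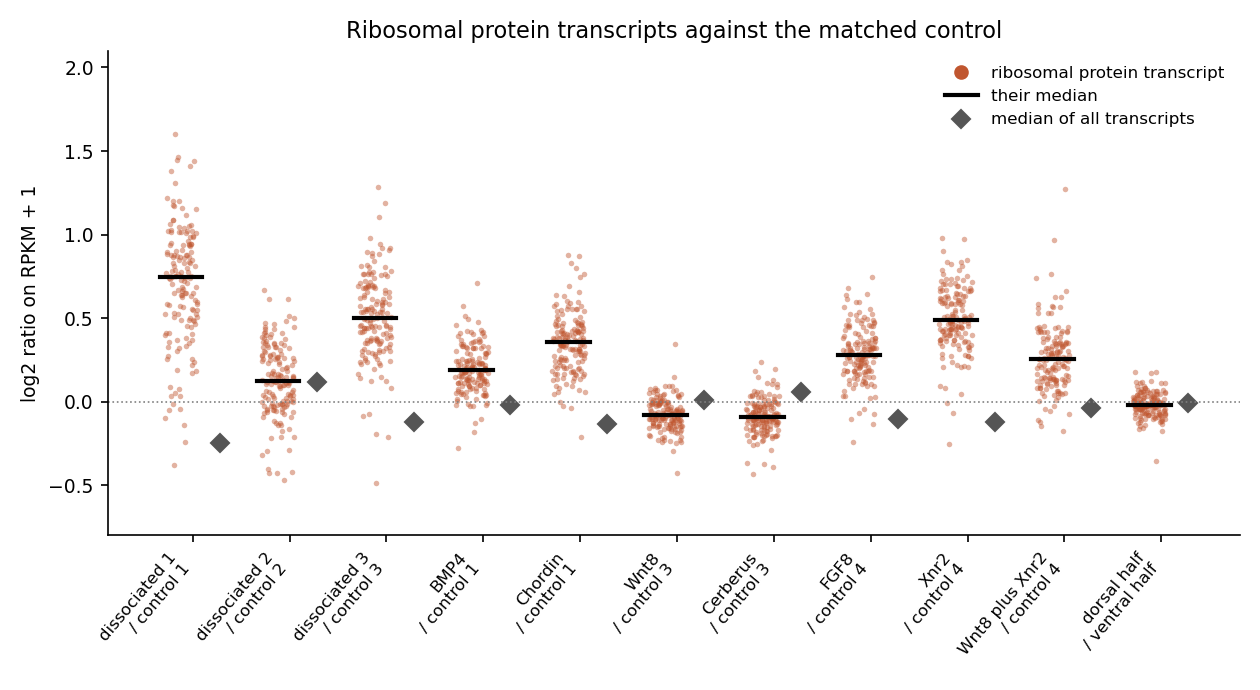
Log2 ratio on RPKM + 1 of each treated library to the control its label names, and of the dorsal to the ventral part. Each point is 1 ribosomal protein transcript averaging at least 1 RPKM in the pair, the black line is their median and the grey diamond is the median of all transcripts. Members lie above 0 in dissociated 1 and 3 (medians 0.74 and 0.50), around 0 for the dorsal part, and slightly below 0 after Wnt8 and Cerberus.

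The members with the largest or steadiest differences came from both subunits. A transcript of RPS12 (Xelaev18000107m), a protein of the small subunit's beak, had 83.4, 155.4 and 192.4 RPKM in dissociated 1, 2 and 3, against 26.8, 112.4 and 78.5 RPKM in controls 1, 2 and 3. It was higher in every set, by a log2 change of 1.12 ± 0.238 (SE), with an adjusted p of 0.0914, in limma with the set block. The stalk protein transcript RPLP2 (Xelaev18011978m) had 41.2, 63.2 and 47.2 RPKM in dissociated caps, against 17.4, 51.8 and 20.1 RPKM in controls. A transcript of RPL10 (Xelaev18038083m), the late-joining protein needed before the subunits can unite, had 62.96, 111.0 and 103.7 RPKM in dissociated caps, against 28.5, 83.97 and 52.0 RPKM in controls. Both stood higher in all 3 sets, with overlapping groups. Groups did not overlap for 3 of 156 members, against 6.63% of all transcripts that were likewise higher. The next 2 transcripts, both among them, were named after their values were seen. Transcript rpl17.L, for RPL17 at the mouth of the exit tunnel, had 119.2, 177.2 and 117.7 RPKM in dissociated caps, against 65.7, 115.2 and 66.6 RPKM in controls. A second RPLP2 transcript (Xelaev18022105m) had 35.6, 40.005 and 39.2 RPKM in dissociated caps, against 22.3, 30.8 and 24.8 RPKM in controls. Their limma adjusted p-values without the block were 0.439 and 0.453.

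Functional groups within the ribosome, chosen by role, mostly stood above control in sets 1 and 3 and varied in set 2. Among stalk proteins, which recruit the elongation factors, RPLP1 had 204.6, 348.5 and 252.9 RPKM in dissociated 1, 2 and 3, against 123.7, 290.8 and 172.2 RPKM in controls 1, 2 and 3. RPLP0 summed to 130.3, 187.9 and 224.0 RPKM in dissociated caps, against 85.7, 203.9 and 173.2 RPKM in controls, and so stood lower in set 2. RPSA, the small subunit protein also known as the laminin receptor precursor, summed to 330.4, 365.6 and 341.9 RPKM in dissociated caps, against 148.8, 431.8 and 284.6 RPKM in controls. It was more than 2 times its control in set 1 and below it in set 2. In the 5S particle, RPL5 summed to 298.0, 475.0 and 408.9 RPKM in dissociated caps, against 249.3, 504.3 and 352.1 RPKM in controls. RPL11 summed to 269.7, 482.7 and 333.5 RPKM in dissociated caps, against 198.6, 431.2 and 256.5 RPKM in controls. RPL11 was thus above its control in every set and RPL5 in sets 1 and 3.

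The Diamond-Blackfan anaemia gene RPS19, named for the human disease that loss of 1 copy causes, was higher in every set. RPS19 summed to 398.2, 543.1 and 526.7 RPKM in dissociated caps, against 276.7, 461.9 and 366.1 RPKM in controls. The groups overlapped, with control 2 above dissociated 1. RPL38, which mouse embryos need for translating a subset of Hox mRNAs, summed to 221.9, 377.1 and 272.6 RPKM in dissociated caps, against 107.2, 289.2 and 159.9 RPKM in controls. RPS6, the substrate of the S6 kinases, summed to 257.9, 438.5 and 379.1 RPKM in dissociated caps, against 154.3, 433.4 and 269.4 RPKM in controls. RPS3, at the mRNA entry channel, summed to 177.6, 330.7 and 258.9 RPKM in dissociated caps, against 118.5, 307.0 and 202.8 RPKM in controls. RPL38, RPS6 and RPS3 were also above the own control in 3 of 3 sets with overlapping groups, and RPS6 was nearly level with control 2 in set 2.

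A few copies parted from their partners. Of 68 genes with at least 2 transcripts averaging 10 RPKM or more in caps, the copies' log2 changes on dissociation differed by a median of 0.132, and by at least 0.5 in 4 genes. For RPL3, rpl3.L had 342.9, 426.9 and 441.3 RPKM in dissociated 1, 2 and 3, against 175.4, 462.6 and 339.2 RPKM in controls 1, 2 and 3. Its partner rpl3.S had 158.3, 234.9 and 197.8 RPKM in dissociated caps, against 163.6, 243.6 and 226.3 RPKM in controls, lower in every set. For RPLP0, rplp0.L had 102.2, 145.9 and 175.7 RPKM in dissociated caps, against 58.6, 147.3 and 121.9 RPKM in controls. Its partner rplp0.S had 28.1, 42.0 and 48.3 RPKM in dissociated caps, against 27.0, 56.6 and 51.3 RPKM in controls. The L copies of both genes were higher in sets 1 and 3 and lower in set 2. For RPS12, Xelaev18003505m had 194.9, 268.9 and 175.9 RPKM in dissociated caps, against 184.6, 196.8 and 127.8 RPKM in controls, a smaller ratio than that of its partner in every set. For RPS9, which lies near the decoding site, Xelaev18037805m had 179.0, 229.2 and 275.8 RPKM in dissociated caps, against 233.3, 280.9 and 248.9 RPKM in controls. RPS9 Xelaev18036189m had 56.5, 44.8 and 72.0 RPKM in dissociated caps, against 20.2, 46.9 and 55.7 RPKM in controls. The sources used here do not say how reads were shared among near-identical copies, which makes each of these differences uncertain.

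**Figure D3:**
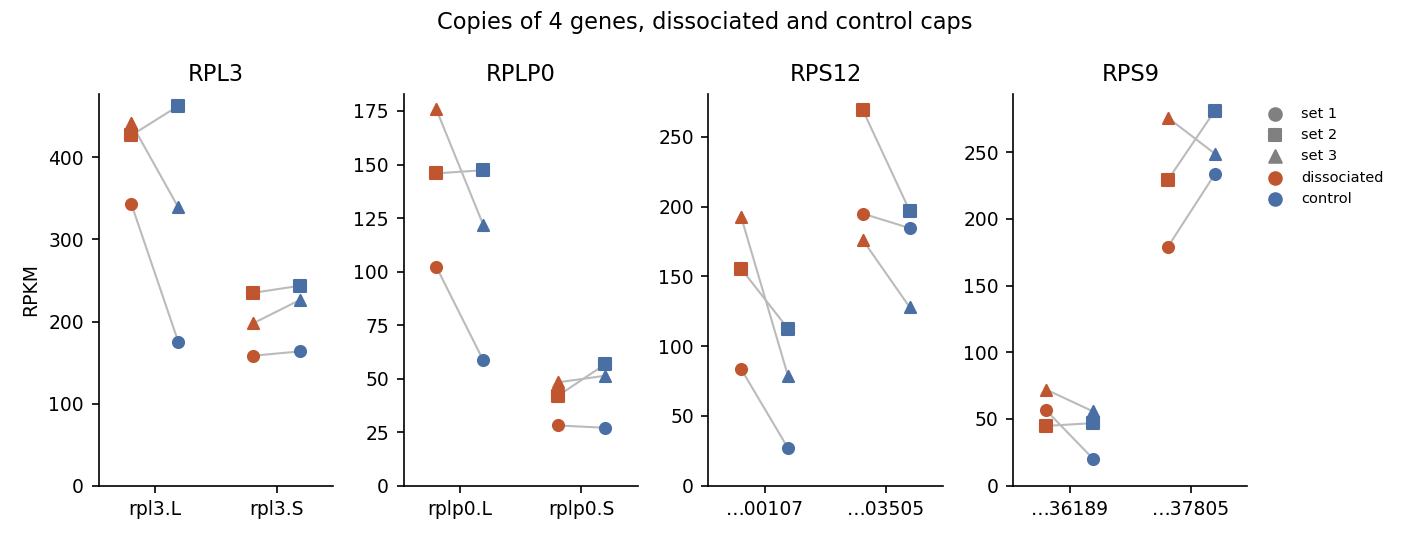
RPKM of 2 transcripts each of RPL3, RPLP0, RPS12 and RPS9, with the dissociated library left of its control and a line joining the libraries of 1 set (circle, square and triangle for sets 1, 2 and 3). Numbered models are shown by their last 5 digits. The left transcript of each gene is higher in dissociated 1 than in control 1, and rpl3.S is lower in all 3 sets.

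BMP4 and Chordin act in opposite directions on the same pathway, and both libraries stood above their own control for most members. After BMP4, 146 of 156 members were above control 1, against 46.3% of all transcripts, with a median log2 ratio of 0.19 for the members and -0.02 for all transcripts. After Chordin, 152 of 156 were above control 1, against 30.6% of all transcripts, with a median of 0.36 for the members and -0.13 for all transcripts. Both were above control 1 for 140 of 152 members, against 20.7% of all transcripts, and Chordin was above BMP4 for 125, against 30.6%. These counts share control 1, the lowest of the controls. Set against all 4 controls, the direction turned: the median log2 change was -0.47 after BMP4 and -0.29 after Chordin, where it was 0.16 and 0.05 for all transcripts. With the set block it was 0.07 after BMP4 and 0.21 after Chordin. By limma's adjusted p, 0 of 156 members were called in either comparison, where 0.417% of all transcripts were higher and 0.0125% lower after BMP4, and 0.0128% higher and 0% lower after Chordin. At an unadjusted p under 0.05 there were 0 members after BMP4, where 1.95% of all transcripts were higher and 0.661% lower. There were likewise 0 after Chordin, where 1.07% of all transcripts were higher and 1.87% lower. RPS20 shows the levels: it summed to 480.8 RPKM after BMP4 and 643.8 after Chordin, against 460.9 RPKM in control 1 and 788.2 in control 4. The epidermal list summed to 1301 RPKM after BMP4 and 489.1 after Chordin, against 1489 in control 1. Pan-mesoderm markers summed to 720.3 RPKM after BMP4 and 3.47 after Chordin, against 5.07 in control 1. The neural list summed to 523.8 and 1887 RPKM after BMP4 and Chordin, against 547.1 in control 1. The BMP4 sum includes mix1.L and mix1.S, at 54.6 and 62 RPKM, against 0.110 and 0 in control 1. Over the 7 neural transcripts listed in every library, mean log2(RPKM + 1) was 1.48 after BMP4 and 6.98 after Chordin, against 4.29 in control 1. The part of these markers was not tested.

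Wnt8 and Cerberus, in set 3, left the family close to control 3 and slightly below it. After Wnt8, 31 of 156 members were above control 3, against 52.2% of all transcripts, with a median log2 ratio of -0.08 for the members and 0.01 for all transcripts. After Cerberus, 26 of 156 were above control 3, against 59% of all transcripts, with a median of -0.09 for the members and 0.06 for all transcripts. Both libraries were below control 3 for 111 of 152 members, against 33% of all transcripts. Of the 156 members, 0 differed from control 3 by 1.5-fold in either library, where 3.4% of all transcripts were that much higher and 5.59% lower after Wnt8, and 4.48% higher and 7.03% lower after Cerberus. Against the 4 controls, limma called 0 members at an adjusted p under 0.05, where 0.0758% of all transcripts were higher and 0% lower after Wnt8, and 0.069% higher and 0.00627% lower after Cerberus. At an unadjusted p under 0.05 there were 0 members in either, where 1.17% of all transcripts were higher and 0.872% lower after Wnt8, and 1.77% higher and 1.67% lower after Cerberus. RPL3 summed to 546.3 RPKM after Wnt8 and 520.1 after Cerberus, against 565.6 RPKM in control 3. The neural list summed to 228.9 RPKM after Wnt8 and 1695 after Cerberus, against 177.4 in control 3, and the epidermal list to 1289 RPKM after Wnt8 and 500.5 after Cerberus, against 1859 in control 3. Their part in these values was not tested.

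FGF8, Xnr2, and Wnt8 plus Xnr2, all in set 4, stood above control 4 for most of the family. After FGF8, 146 of 152 members were above control 4, against 37.2% of all transcripts, with a median log2 ratio of 0.28 for the members and -0.11 for all transcripts. After Xnr2 it was 149 of 152, against 40.6%, with medians of 0.49 and -0.12. After Wnt8 plus Xnr2 it was 144 of 152, against 44.9%, with medians of 0.26 and -0.04. Xnr2 gave a difference of at least 1.5-fold for 54 members, all higher. Of all transcripts, 12.5% were that much higher and 22.3% lower. FGF8 gave such a difference for 7 members and Wnt8 plus Xnr2 for 8, again all higher. Of all transcripts, 4.37% were that much higher and 8.23% lower after FGF8, and 11.6% and 10.7% after Wnt8 plus Xnr2. All 3 libraries were above control 4 for 140 members, against 21.2% of all transcripts. These counts share control 4. Pan-mesoderm markers (T, EOMES, MIX1 and others) summed to 58.4 RPKM after FGF8, 2389 after Xnr2 and 2561 with both mRNAs, against 6.26 RPKM in control 4. The epidermal list summed to 939, 543.6 and 606.8 RPKM in the same treated libraries, against 1857 in control 4. The neural list summed to 871.1, 354.3 and 315.5 RPKM, against 198.7. Its sums include mix1.L and mix1.S, at 23.8 and 17.5 RPKM after Xnr2 and 33.5 and 27.8 RPKM with both mRNAs. Over the 7 neural transcripts listed in every library, mean log2(RPKM + 1) was 4.39, 2.01 and 3.08, against 3.50 in control 4. That mean was thus higher after FGF8 and lower in both libraries with Xnr2. The part of these markers was not tested.

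With Wnt8 mRNA added to Xnr2, the family's level was below that of Xnr2 alone and close to that of FGF8. Wnt8 plus Xnr2 was below Xnr2 for 138 of 152 members, against 42.2% of all transcripts, with a median log2 ratio of -0.24 for the members and 0.07 for all transcripts. This is 1 library against 1, so there is no test. FGF8 was below Xnr2 for 150 members, against 40.5% of all transcripts. RPS20 summed to 1055 RPKM after FGF8, 1175 after Xnr2 and 1032 with both mRNAs, against 788.2 RPKM in control 4. RPSA summed to 351.1, 434.4 and 322.7 RPKM in the same treated libraries, against 280.7 RPKM in control 4. RPS6 summed to 405.3, 473.5 and 399.0 RPKM, against 330.6 RPKM in control 4. Each of these genes was highest after Xnr2.

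In limma against controls 1 to 4, 0 of 152 members were called in any of the 3 comparisons. Of all transcripts, 0.168% were called higher and 0% lower after FGF8, 3.69% higher and 0.447% lower after Xnr2, and 3.5% higher and 0.24% lower after Wnt8 plus Xnr2. At an unadjusted p under 0.05, 4 members were higher after FGF8, 12 after Xnr2 and 3 after Wnt8 plus Xnr2, and 0 were lower in any of them. Of all transcripts, 2.26% were higher and 1.31% lower after FGF8, 7.98% and 6.78% after Xnr2, and 7.34% and 3.6% after Wnt8 plus Xnr2, so the shares of members that were higher were near those of all transcripts or, for the double injection, below them. Median log2 changes were 0.46, 0.69 and 0.42 against the 4 controls. Among the larger single values, rpl39.L, for the small protein RPL39 lining the exit tunnel, had 119.0, 143.0 and 127.5 RPKM after FGF8, Xnr2 and Wnt8 plus Xnr2, against 24.0, 70.8, 33.3 and 76.0 RPKM in controls 1 to 4. Its log2 change after Xnr2 was 1.63 ± 0.626 (SE) with a limma adjusted p of 0.286, and 0.90 with an adjusted p of 0.257 with the block. Transcript rpl38.L had 236.9, 247.7 and 224.1 RPKM in the same treated libraries, against 51.3, 134.6, 70.3 and 151.0 RPKM in controls 1 to 4. Both were above every control, and control 4 was itself the highest control for each.

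Some members differed between control sets more than between libraries of 1 set. Relative to the family median of each library, the mean level of 7 of 152 members differed by at least 1 log2 unit between sets. The matching share of all transcripts is not given here, so this count does not set the members apart from other transcripts. The median range of set means was 0.35 and the median SD within sets was 0.12. A range and an SD are unlike measures, so their sizes are not compared. Transcript rps29.L, for a small zinc-binding protein of the small subunit's head, had 618.3, 663.1 and 518.7 RPKM after FGF8, Xnr2 and Wnt8 plus Xnr2 and 474.2 RPKM in their control 4. It had 129.3, 293.4 and 185.7 RPKM in controls 1, 2 and 3, so all of set 4 stood above them. An RPS21 transcript (Xelaev18029059m) was low in sets 1 and 4, with 20.1, 25.6 and 22.9 RPKM in the 3 treated libraries of set 4, 16.4 in control 4, and 17.6, 64.2 and 43.8 in controls 1, 2 and 3. Relative to the family median it stood lowest in set 4, at a mean log2 distance of -2.71, against -1.76 in set 1. The transcript mkrn3.S, with the RPS10 symbol, had 187.7, 165.7 and 173.5 RPKM in dissociated 1, BMP4 and Chordin and 201.04 in their control 1, where controls 2, 3 and 4 had 113.2, 120.8 and 154.2. Of the 152 members its ratio to control 1 was the lowest after BMP4 and after Chordin, at log2 values of -0.28 and -0.21. These 3 were named after their values were seen. The 3 most variable transcripts averaging at least 10 RPKM in caps were RPLP2 (Xelaev18011978m), rpl39.L and RPS12 (Xelaev18000107m), with SDs of 0.96, 0.86 and 0.85 log2 units over the cap libraries. The lowest and highest of the 14 cap libraries stood at 16.997 and 118.1 RPKM for the RPLP2 transcript, 24.0 and 143.0 for rpl39.L, and 26.8 and 192.4 for the RPS12 transcript. Set 4 lists some transcripts under other names than the other sets do. For example, grhl3.S had 285.2 RPKM in control 4 and 0 in controls 1, 2 and 3. The RPLP2 transcript Xelaev18022105m has no value in set 4. The part of this naming in the differences between set 4 and the other sets was not tested.

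In most pairs of L and S copies the same copy was higher in every library. The range of the log2 ratio over libraries had a median of 0.71 over the pairs, and ran from 0.36 to 1.48. Of 31 pairs named as L and S copies, the L copy was higher in all 16 libraries in 13, the S copy in 13, and 5 changed sides. The ratio was past 2-fold in all 16 libraries in 11 pairs. At the extremes, rps29.L stood above rps29.S by a median log2 ratio of 2.66 (range 2.35 to 3.13), and rpl14.L below rpl14.S by a median of -1.79 (range -2.01 to -1.61). Among the 5 pairs that changed sides were those of RPL38, RPL27A, RPL8 and RPL9. In 23 of 31 pairs the spread between set means exceeded the mean spread within sets, with median SDs of 0.18 and 0.11 log2 units. In the RPL39 pair the log2 ratio ran from -2.04 to -0.56, and the values nearest 0 were those of set 4. Set 4 lists some transcripts under other names, as given above, and the part of this was not tested.

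**Figure D4:**
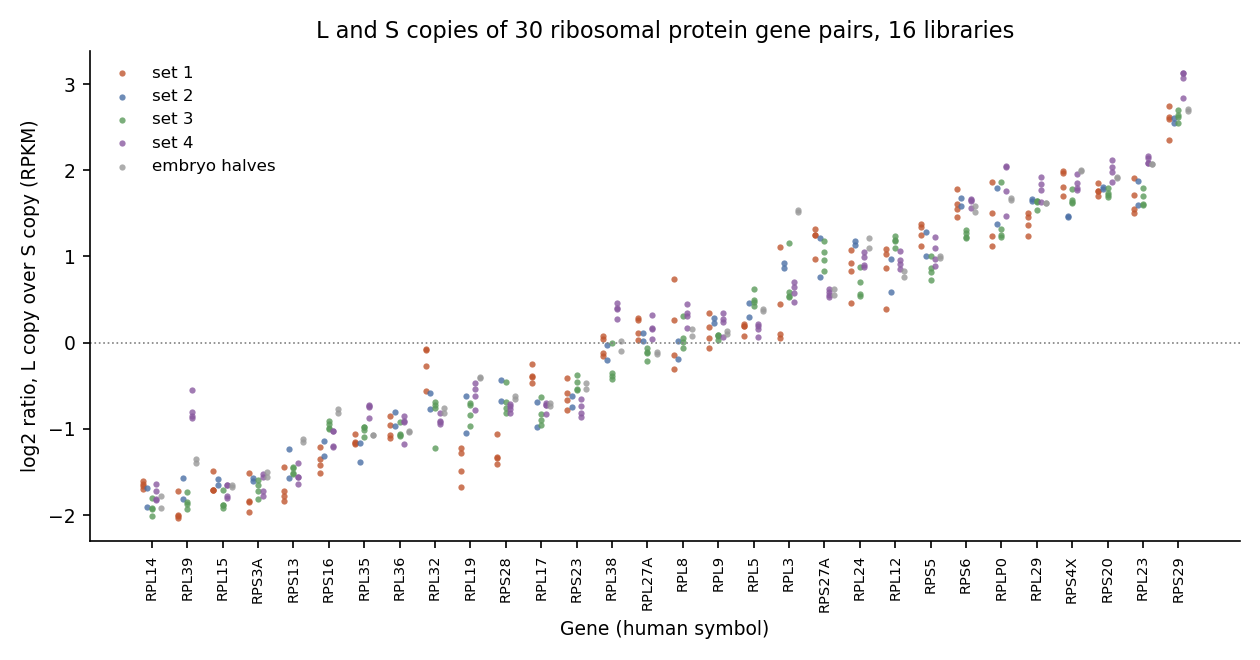
Log2 ratio of L to S copy RPKM for all but 1 of the pairs (columns, by human symbol, ordered by median), with 1 point per library coloured by control set. Most columns lie wholly on 1 side of 0; RPS29 is highest and RPL14 lowest, and the set 4 points of RPL39 stand above the others.

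The dorsal and ventral parts of the embryo had nearly the same ribosomal protein transcripts. The 152 transcripts took 1.84% of mapped reads in the dorsal and 1.86% in the ventral library. Of 156 members, 58 were higher dorsally, against 48.2% of all 14996 transcripts, and the median log2 ratio was -0.02 for the members and -0.01 for all. None (0 of 156) was past 2-fold or 1.5-fold in either direction, where 1.79% of all transcripts were at least 2-fold higher dorsally and 2.17% ventrally, and 4.07% and 5.31% at least 1.5-fold. The largest dorsal ratios were those of RPL23A (Xelaev18014154m), at 26.7 RPKM dorsally and 23.5 ventrally, rpl22l1.L, at 19.3 and 17.02, and RPS27L, at 14.5 and 12.8. The largest ventral ones were those of RPS27 (Xelaev18020804m), at 3.03 RPKM dorsally and 4.16 ventrally on 38 and 48 reads, RPS9 (Xelaev18037805m), at 178.4 and 201.3, and RPLP2 (Xelaev18024282m), at 46.3 and 52.0. The 95% binomial interval of the dorsal to ventral ratio, which covers counting error only, was 1.02 to 1.26 for rpl22l1.L, 0.844 to 0.930 for the RPS9 transcript and 0.464 to 1.14 for the RPS27 transcript. Organizer markers stood apart in the same libraries, at a summed 814.9 RPKM dorsally and 221.0 ventrally.

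Paralogues varied among themselves. RPL22L1, a paralogue of RPL22, had 6.61, 11.3 and 12.8 RPKM in dissociated 1, 2 and 3, against 3.52, 10.98 and 9.63 RPKM in controls 1, 2 and 3. It reached 16.1, 20.1 and 15.5 RPKM after FGF8, Xnr2 and Wnt8 plus Xnr2, against 9.69 RPKM in control 4, and was 3.88% to 9.61% of RPL22 in level per length. RPL26L1 stood close to RPL26, at 59.1% to 98.4% of it. Its ratio to control 1 after BMP4 was the highest of the 152 members, with 68.4 RPKM after BMP4, against 41.5 RPKM in control 1 and a log2 ratio of 0.71 where the family median was 0.19. It had 143.0, 167.7 and 126.0 RPKM after FGF8, Xnr2 and Wnt8 plus Xnr2, against 94.2 RPKM in control 4. RPL7L1, which in humans works in ribosome assembly, stayed between 139.1 and 191.7 RPKM in all cap libraries while RPL7 ran from 187.9 to 454.1 RPKM. RPS27L, a p53 target in humans, was lower in each dissociated library, at 9.01, 16.0 and 9.86 RPKM in dissociated 1, 2 and 3, against 10.8, 17.7 and 14.2 RPKM in controls 1, 2 and 3. Its partner RPS27 was at 428.3, 614.0 and 488.2 RPKM in dissociated caps, against 307.6, 530.4 and 392.2 RPKM in controls. RPL3L, a muscle gene in mammals, was at 0.139, 0.231 and 0.0522 RPKM in dissociated caps, against 0.107, 0.0798 and 0.562 RPKM in controls.

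Neighbouring parts of the translation machinery did not share one pattern. Elongation factors and other TOP mRNAs (EEF1A1, EEF2, TPT1 and others) had median log2 ratios of 0.10 over 37 transcripts in dissociated 1, -0.03 over 37 in dissociated 2, -0.04 over 36 in dissociated 3 and 0.01 over 35 after Xnr2. Of these, 21, 16, 15 and 18 were above the own control, where 32.5%, 60.8%, 41.7% and 40.6% of all transcripts were. Ribosome assembly factors (FBL, NOP56, NCL and others) had medians of 0.15 over 98 transcripts in dissociated 1, 0.09 over 97 in dissociated 2, 0.33 over 97 in dissociated 3 and 0.28 over 97 after Xnr2. After Wnt8, 93 of 97 assembly factor transcripts were above control 3, against 52.2% of all transcripts, with a median of 0.17, where the ribosomal protein median was -0.08. Transcripts for rRNA synthesis had medians of -0.12 over 18 in dissociated 1, -0.04 over 18 in dissociated 2, -0.16 over 19 in dissociated 3 and -0.12 over 19 after Xnr2. Mitochondrial ribosomal proteins had medians of -0.20 over 90 in dissociated 1, 0.12 over 95 in dissociated 2, -0.16 over 92 in dissociated 3 and -0.26 over 93 after Xnr2. Their median was thus above 0 in set 2 and below 0 in the other 3 libraries. The medians of all transcripts had the same signs, at -0.25, 0.11 and -0.12 in dissociated 1, 2 and 3 and -0.12 after Xnr2. The median level of mitochondrial ribosomal proteins lay between 10.5 and 13.4 RPKM in all cap libraries. Limma called 0 transcripts of these lists in any comparison except 1 mitochondrial ribosomal protein, mrpl42.L. It had 3.19 RPKM in the Xnr2 library (limma adjusted p = 0.0442) and 5.11 RPKM in the double injection (limma adjusted p = 0.00919), against 1.04 RPKM in control 4, and rose in both. It was not called with the set block, where mrpl14.L was instead, with 67.7 RPKM after Xnr2 against 23.04 RPKM in control 4 (limma adjusted p = 0.0432).

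Model length, in bases, was inferred for 160 members as a whole length that turns the deposited RPKM into whole reads. It is set beside the ratios for 3 length classes: under 600, from 600 to under 1000, and at least 1000 bases. In set 1 the median log2 ratios of dissociated to control were 0.79, 0.69 and 0.74 for members of these classes, against -0.10, -0.14 and -0.27 for other transcripts of the same classes. In set 2 they were 0.25, 0.07 and 0.06 for the members, against 0.21, 0.13 and 0.11 for other transcripts, so the 2 longer classes of members were below the others there. Other transcripts averaging at least 30 RPKM in that pair had medians of 0.12, 0.08 and 0.03. Against these, the longest class of members was slightly above and the middle class nearly level. In set 3 they were 0.61, 0.45 and 0.44, against 0.10, -0.07 and -0.15. After Xnr2 they were 0.55, 0.46 and 0.47, against -0.05, -0.03 and -0.15. Each class held 50 to 55 members, and the part of length in these values was not tested.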

How the data were processed

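Per the file headers, the deposited values are RPKM of transcript models on genome build JGI9.1. TopHat2 2.09 and DESeq appear in the submitters' processing notes, while the counting rule and annotation release are not given in the sources used here. The authors' deposited tables of 1 treated library leave out transcripts under a mean of 1 RPKM, per the file headers, and missing values stayed missing. Ratios of RPKM columns (fold), deposited beside them, were not used. Members and gene lists were chosen with earlier results of these data known. Tests used limma 3.58.1 in R 4.3.3, with a trend, on log2(RPKM + 1), which understates changes of low transcripts, over all transcripts averaging at least 1 RPKM, with Benjamini-Hochberg adjustment and a threshold of 0.05. Injected libraries, 1 each, were tested against controls 1 to 4 and assumed to vary like control and dissociated libraries; control 4 lists fewer transcripts, and its fits left out those at 0 in dissociated 1 to 3 and controls 1 to 3 alike. The control set entered as a block in an alternative fit: the file headers call each set an independent experiment, and deviations of dissociated 1, 2 and 3 correlated with those of controls 1, 2 and 3 by 0.584, 0.391 and 0.628 over 15819 transcripts. Depth, model length and reads were recovered from the RPKM steps. All 2504 values of 160 members came out close to whole reads. Lengths were chosen to make the values whole, so this is no independent check. Scripts were tested on simulated data. Alternatives were pseudocounts of 0.1 and 5, no filter, median scaling, scaling outside the members, voom on recovered reads, the block, and each replicate left out. Named members were the 5 highest and 5 lowest genes, the 3 most variable transcripts, a list of stalk, 5S and disease genes, paralogue pairs, the 3 largest dorsal and ventral ratios, and those named with a reason in the text. A few members are not reported here by name. No sequences or coordinates are given.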

Additional observations from a re-analysis of the deposited data

Results flagged for a closer look

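One member was flagged for its spread among the controls. A short RPL23A transcript (Xelaev18037595m), for a protein that docks the signal recognition particle at the exit tunnel, had 12.5, 13.1 and 20.5 RPKM after FGF8, Xnr2 and Wnt8 plus Xnr2, against 7.90 RPKM in control 4 and 1.22, 1.54 and 1.04 RPKM in controls 1, 2 and 3. The gap between control 4 and the other controls was 0.927 of their range. It was the only one of 152 members with such a gap (0.658%), where chance gives about 1 in 20. It was named after its value was seen. Its values rest on 16, 27 and 22 reads in controls 1, 2 and 3 and 132 in control 4. Relative to the family median, its set means ranged over 2.44 log2 units. For the RPL23A transcripts Xelaev18011698m and Xelaev18014154m they ranged over 0.32 and 0.18. Set 4 lists some transcripts under other names, and the part of this was not tested.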

How the results depend on the processing

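Of the alternatives tried, 0 members were called in any comparison except as follows. Without control 4, 1 member was called after FGF8, 1 after Xnr2 and 1 after Wnt8 plus Xnr2, and with a pseudocount of 5, 1 was called after Wnt8 plus Xnr2; each time it was the RPL23A transcript Xelaev18037595m, which was not called otherwise. The shares of all transcripts called in those fits are not given here, so these calls do not set the transcript apart from others. For dissociation, leaving out set 1, 2 or 3 whole with the replicate block kept gave 10, 0 and 3 called members. The shares of all transcripts to set them against are likewise not given. Leaving out single libraries thus called 0 to 1 members in the 3 comparisons of set 4 and 0 in the other 5. The replicate block turned the direction of the median for BMP4 (0.0662, and 0.0447 by voom on recovered reads with the replicate block) and for Chordin (0.2086, and 0.3104 with median scaling and the replicate block), as did setting each against its own control alone (0.1897 and 0.3555), where the 4 controls gave -0.4674 and -0.2874. With all libraries the replicate block called 0 members in any comparison. At a limma unadjusted p under 0.05 it gave, beside the 82 of dissociation, 1 member for BMP4 and 2 for Chordin. It gave 4 for Wnt8 plus Xnr2, 13 for Xnr2 and 0 for Wnt8, Cerberus and FGF8, and all were higher. The shares of members were 0.641% for BMP4, 1.28% for Chordin, 2.63% for Wnt8 plus Xnr2 and 8.55% for Xnr2. Of all transcripts, 2.57%, 0.937%, 7.07% and 7.39% were likewise higher, so these shares were near or below the background. For Wnt8, Cerberus and FGF8, 1.35%, 1.89% and 1.42% of all transcripts were higher. Leaving out 1 library gave medians of 0.17 to 0.74 for dissociation, -0.68 to -0.30 for BMP4, -0.51 to -0.12 for Chordin, -0.33 to 0.05 for Wnt8, -0.35 to 0.04 for Cerberus, 0.27 to 0.64 for FGF8, 0.47 to 0.87 for Xnr2 and 0.23 to 0.60 for Wnt8 plus Xnr2, so the medians after Wnt8 and Cerberus (-0.12 each) turned above 0 when control 2 was left out. The cause was not tested. Other scalings, pseudocounts and filters kept the direction of every median. Combinations with the replicate block and whole sets left out were chosen after the data were seen.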
